A study of Apis mellifera with 12 samples.

Results

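The 88 genes described here were off in honeybee embryos 10–15 h after egg laying, had come on by 25–40 h and stood at least as high at 55–70 h. They were chosen by measured levels: a locus with 1 gene name and a valid estimate in all 12 libraries had to lie under 1 FPKM (fragments normalised to transcript length and to the number of mapped fragments) in each of the 4 libraries of 10–15 h, to average at least 10 FPKM at 25–40 h, and to average at least that at 55–70 h. Names of several well-described families, among them the Hox genes and names that begin with Rp, CPR, Osi, Tpn or Hex, were left out beforehand. Of 17621 loci, 8546 carried 1 gene name, 8288 of these stayed after the name and validity steps, 2235 were under 1 FPKM at 10–15 h, 186 had reached 10 FPKM at 25–40 h, and 88 met the last condition. Because the age pattern was the ground of the choice, the levels by age are a description and carry no test, while the direction of the difference between the sexes was not part of the choice and was tested. The limit at 25–40 h used the mean of both sexes, so a gene that met it through 1 sex alone had to differ between the sexes there.

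Poly(A) RNA was sequenced from intact wild-type embryos of *Apis mellifera carnica*, the Carniolan honeybee. Females of this species develop from fertilized, diploid eggs and males from unfertilized, haploid eggs. There were female and male pools of 10–15 h (100 embryos per pool), of 25–40 h (60 embryos) and of 55–70 h (30 embryos), each from 3 mothers and with 2 libraries per sex and age. The methods of the study state that female eggs came from naturally mated queens and male eggs from unmated queens treated with carbon dioxide. The labels do not say this of these pools. If it holds for them, sex, ploidy and the kind of mother cannot be told apart. Eggs were collected over several hours and aged in an incubator, hence each pool spans a window of ages. The labels do not say that the 2 libraries of a group were collected separately, so p-values rest on library-to-library spread alone, which could be technical.

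The early insect embryo lives on RNA supplied by the mother until its own genome takes over, after which gastrulation, segmentation and organ formation follow each other until the larva is complete. Genes that start in the middle of this course and stay on often belong to tissues under construction: signalling pathways and their feedback inhibitors, adhesion molecules, junction proteins of epithelia, synaptic proteins, and later the enzymes and secreted proteins of working organs. Members of all these kinds were found among the 88 genes. Of the 88, 29 had a gene symbol and 59 were known by a locus number alone, for which no role is given here.

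Across the series, between 7392 and 11048 loci reached 1 FPKM per library, and the 2 libraries of a group correlated at r = 0.934 to 0.991 over all tested loci on the log2(FPKM + 1) scale. The lowest value belonged to the males of 55–70 h, whose libraries differed in some lists of tissue markers. A list of 7 muscle genes summed to 573 FPKM in male library 1 and 1700 FPKM in male library 2. A list of 24 epidermis, cuticle and trachea genes summed to 1330 and 4479 FPKM, and 1 of cytochrome P450 and detoxification genes to 605 and 1348 FPKM. Not all lists differed so: a neuron list summed to 300 and 261 FPKM and a list of blood cells and immunity to 58.0 and 67.4 FPKM. In the females of 55–70 h the muscle list summed to 1677 and 1522 FPKM. The files hold no read counts, so the depth behind each value is unknown.

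The 88 genes made up 0.00513% to 0.00828% of the FPKM sum of a library at 10–15 h, 0.234% to 0.420% at 25–40 h and 1.06% to 1.36% at 55–70 h. The highest share of 25–40 h, 0.420% in male library 1, came to 0.209% once *Mir281*, a very short locus, was left out. Male library 2 had 0.234% without it, and the female libraries had 0.347% and 0.410%. Without it the 55–70 h libraries held 0.902% to 1.17%. At 25–40 h their median was 19.9 and 20.2 FPKM in the female libraries, against 10.4 and 11.7 FPKM in the male libraries. Their 55–70 h median was 32.8 and 40.9 FPKM in females, against 34.7 and 41.4 FPKM in males. The female libraries thus stood above the male libraries at 25–40 h, whereas the ranges of the sexes overlapped at 55–70 h.

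**Figure D1:**
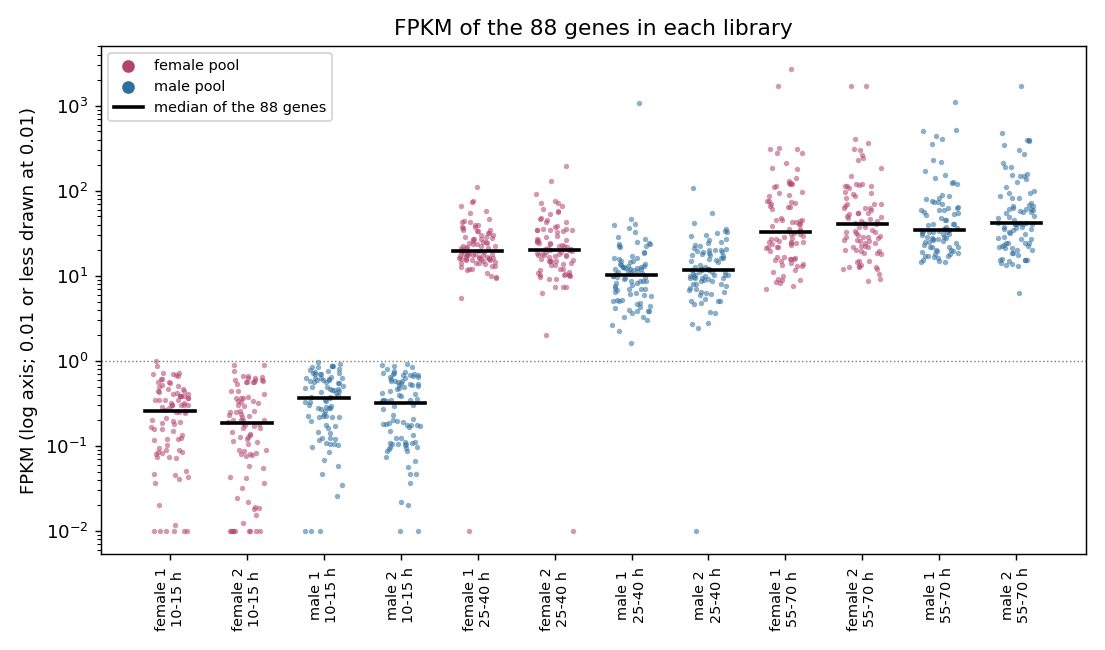
FPKM (log axis) of the 88 genes in each of the 12 libraries, female left of male within each age; points are genes, black bars are medians and the dotted line marks 1 FPKM. All points lie under 1 FPKM at 10–15 h by choice; at 25–40 h the medians are 19.9 and 20.2 FPKM in females and 10.4 and 11.7 FPKM in males.

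Genes lay close on either side of each limit. Just inside the limit at 10–15 h lay *LOC412678*, *LOC409822* and cyclin D (*CycD*), with highest early values of 0.988, 0.960 and 0.923 FPKM, and just outside lay *LOC413942*, *Dscam* and *ref(2)P* with 1.01, 1.05 and 1.05 FPKM. The limit of 10 FPKM at 25–40 h held in *pnt*, *LOC413739* and *LOC725019* (10.05, 10.06 and 10.15 FPKM) and failed in *LOC100577456*, *LOC410696* and *LOC413043* (9.98, 9.95 and 9.90 FPKM). The ratio of the 55–70 h to the 25–40 h mean was 1.07 in *Notum*, 1.08 in *IGFn3-14* and 1.09 in *LOC100577780*, the members nearest to the limit of 1, while *Ci*, *LOC100578067* and *ap* lay outside with 0.986, 0.984 and 0.973.

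How far the genes went beyond their level at 25–40 h varied widely. The ratio of the 55–70 h to the 25–40 h mean ranged from 1.07 to 97.7 with a median of 2.14. It was at least 1.5 in 55 genes, at least 2 in 46, at least 4 in 24 and at least 10 in 7. In 40 genes each of the 4 libraries of 55–70 h lay above each of the 4 libraries of 25–40 h, and in the other 48 the ages overlapped. The rule asked for a late mean at least as high, so this split is a description. No share over all loci is set beside it. The steepest was *LOC409962*, with 19.2 and 32.5 FPKM in females and 6.94 and 9.40 FPKM in males at 25–40 h, then 2708 and 1699 FPKM in females and 523 and 1718 FPKM in males at 55–70 h. Male library 1, the library with low muscle and cuticle sums, was the lowest of the 4 late values of this gene.

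The change with age can be read for each sex apart. Taken so, the 55–70 h mean lay below the 25–40 h mean in 26 of the 88 genes in females and in 0 of the 88 in males, although the mean over both sexes met the rule in all. The median gene had reached 68.4% of its 55–70 h level by 25–40 h in females and 34.4% in males. These values are a description, since the rule used the levels of both ages, and no share over all loci is given. Females alone averaged at least 10 FPKM at 25–40 h in 36 genes and males alone in 4. A gene that fell in females also had to rise in males to meet the last condition. When the limits had to be met by the means of each sex separately, 33 genes stayed. "Kept" is therefore a statement about the mean of both sexes, and for 26 genes the female pools had their higher level at 25–40 h.

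**Figure D2:**
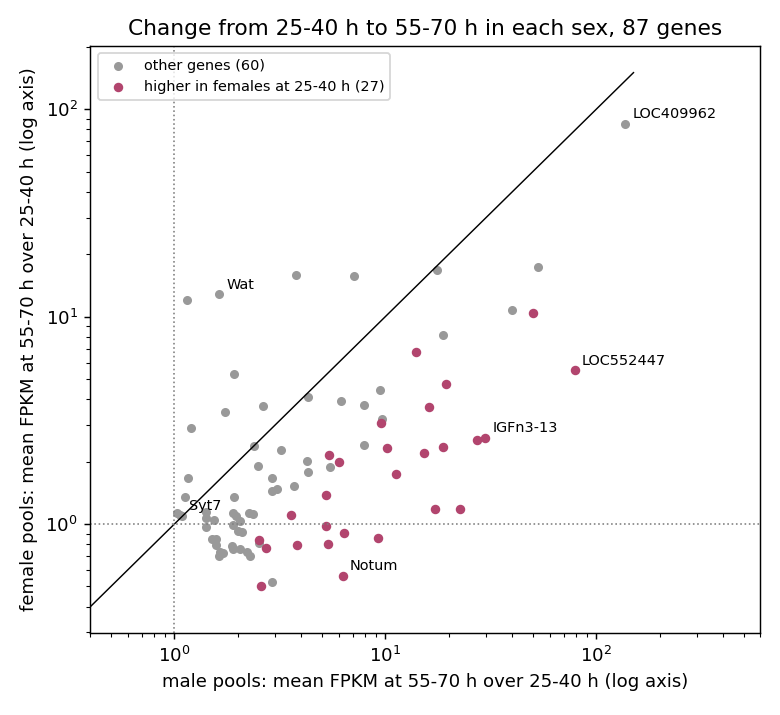
Mean FPKM at 55–70 h over that at 25–40 h in females (y axis) and males (x axis), both on log axes, for 87 genes (*Mir281*, listed at 0 in the female pools of 25–40 h, is left out); the diagonal marks equal change and dotted lines mark no change. The 27 genes higher in females at 25–40 h are coloured; 26 genes lie below 1 in females and 0 in males.

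Secreted, immune and sensory proteins were among the genes with the highest late levels. *Obp13*, an odorant binding protein (a small carrier of hydrophobic ligands, known from antennae and other tissues), had 16.5 and 19.2 FPKM in females and 3.97 and 11.2 FPKM in males at 25–40 h. It then had 318 and 306 FPKM in females and 411 and 393 FPKM in males at 55–70 h, a ratio of 28.0 between the ages. *CTL1*, a C-type lectin (a sugar-binding protein of a family with roles in immunity), had 21.1 and 34.4 FPKM in females and 5.19 and 4.79 FPKM in males at 25–40 h. Its late values were 309 and 267 FPKM in females and 231 and 272 FPKM in males. Both genes lay far above their 25–40 h range in every late library, and both had each female library of 25–40 h above each male library.

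*Wat*, named worker-enriched antennal transcript in the honeybee, had both male libraries above both female libraries at 25–40 h and the reverse at 55–70 h. It had 24.7 and 17.4 FPKM in females and 36.7 and 32.8 FPKM in males at 25–40 h, then 309.7 and 230.2 FPKM in females and 14.5 and 98.9 FPKM in males at 55–70 h. The male libraries of 55–70 h differed from each other by more than the female libraries did, and the sex difference at 55–70 h, 2.77 ± 0.71 on the log2(FPKM + 1) scale (SE), had an adjusted p of 0.269 in limma. Without male library 2 of that age, which leaves male library 1 alone in its group, the difference was 4.11. Male library 1 is the library with low muscle and cuticle sums, and no spread among males enters this value.

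**Figure D3:**
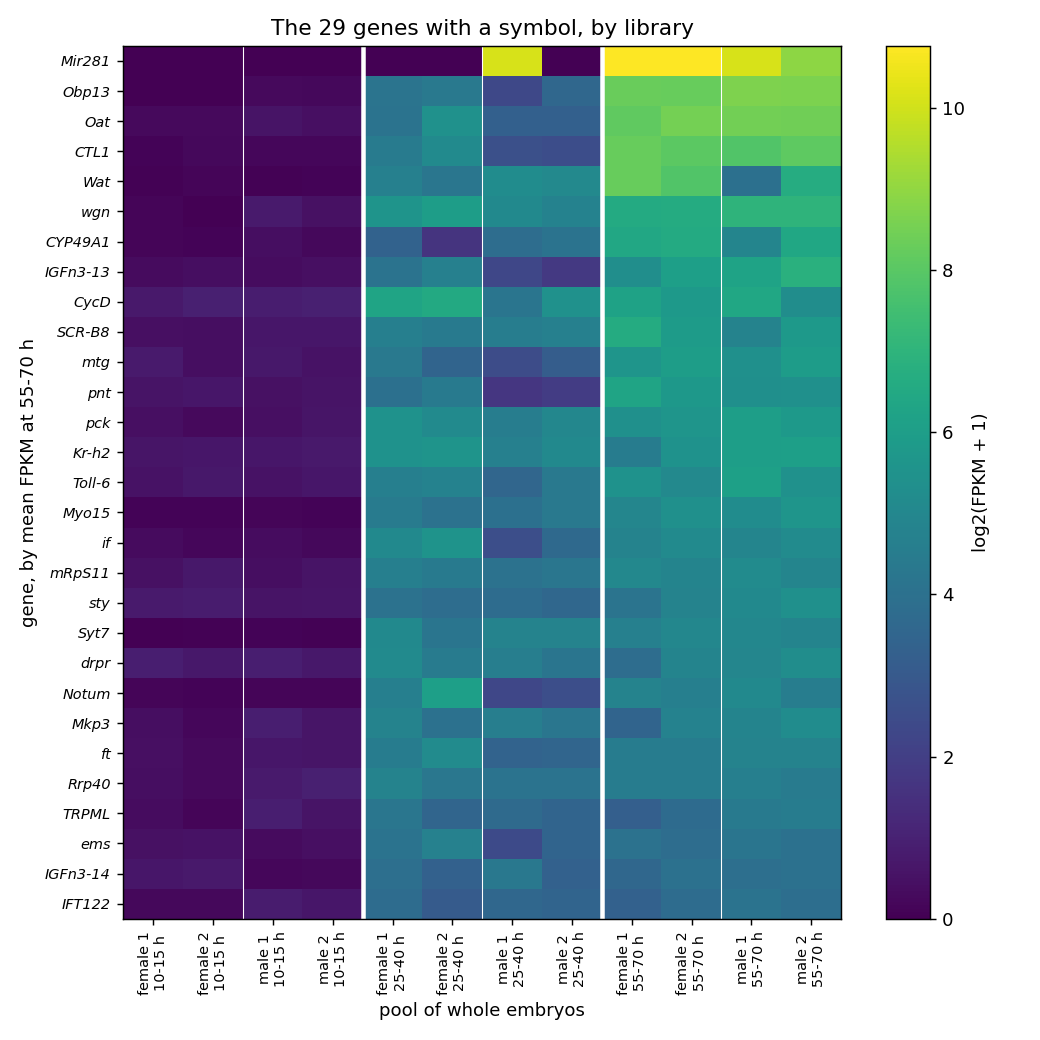
Level of the 29 genes with a symbol in each library as log2(FPKM + 1), genes ordered by their mean at 55–70 h from the top and libraries by age with female left of male. *Mir281* is at 0 in 3 of the 4 libraries of 25–40 h and *Wat* is low in male library 1 of 55–70 h; *pnt*, *Notum*, *if* and *CTL1* are darker in males than in females at 25–40 h.

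Enzymes and uptake receptors followed. *Oat*, ornithine aminotransferase of amino acid metabolism, had 16.2 and 43.0 FPKM in females and 8.75 and 8.90 FPKM in males at 25–40 h, and 278 and 361 FPKM in females and 355 and 347 FPKM in males at 55–70 h. *CYP49A1*, a cytochrome P450, had 9.35 and 2.03 FPKM in females and 13.5 and 16.3 FPKM in males at 25–40 h, then 86.5 and 94.0 FPKM in females and 29.1 and 83.4 FPKM in males. It was 1 of the 4 genes in which both male libraries lay above both female libraries at 25–40 h, with a difference of −1.50 ± 0.61 (SE, adjusted p 0.191 in limma). *SCR-B8*, a class B scavenger receptor, a family that takes up lipids and lipoproteins, had 24.1 and 20.5 FPKM in females and 22.6 and 24.4 FPKM in males at 25–40 h, without a gap between the sexes, and 96.2 and 58.9 FPKM in females and 26.9 and 55.0 FPKM in males at 55–70 h.

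Genes of signalling pathways were present as receptors, nuclear effectors and inhibitors. Among receptors, *wgn*, which in *Drosophila* encodes a receptor for tumour necrosis factor, had 46.6 and 62.0 FPKM in females and 33.1 and 26.3 FPKM in males at 25–40 h and 95.7 and 97.2 FPKM in females and 127 and 127 FPKM in males at 55–70 h. *Toll-6*, a receptor of the Toll family that in *Drosophila* takes part in the ordering of cells during axis elongation, had 23.9 and 26.1 FPKM in females and 10.7 and 19.4 FPKM in males at 25–40 h, and 43.3 and 32.7 FPKM in females and 69.3 and 41.9 FPKM in males at 55–70 h. In both genes each female library lay above each male library at 25–40 h, but the sex differences did not pass the test (adjusted p 0.0806 and 0.279 in limma).

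The Ras/MAP kinase pathway, which carries signals from receptor tyrosine kinases to the nucleus, was represented by its effector and by inhibitors. *pnt* encodes an ETS transcription factor activated by this pathway and lies on chromosome 10 (8428247–8546849 in the coordinates of the files). It had 14.8 and 20.3 FPKM in females and 2.22 and 2.79 FPKM in males at 25–40 h, a difference of 2.40 ± 0.30 (SE, adjusted p 0.00398 in limma), and 76.3 and 52.9 FPKM in females and 40.2 and 40.7 FPKM in males at 55–70 h. It met the limit of 10 FPKM through females alone (mean 17.6 FPKM, against 2.51 FPKM in males), so its choice favoured a sex difference. The inhibitors did not pass the test at 25–40 h. *sty* (Sprouty, an inhibitor of receptor tyrosine kinase signalling) had 15.7 and 13.6 FPKM in females and 13.2 and 11.2 FPKM in males at that age. *Mkp3*, a phosphatase that switches MAP kinase off, had 27.4 and 15.1 FPKM in females and 23.4 and 17.8 FPKM in males. The sexes overlapped in *Mkp3* and lay close together in *sty*, with differences of 0.000702 ± 0.46 and 0.25 ± 0.31 (SE, adjusted p 1 and 0.711 in limma). Whether *pnt* differed from its inhibitors in the sex difference was not tested.

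*Notum* encodes a secreted enzyme that inactivates Wnt ligands by removing their lipid, and Wnt signalling induces it in several animals. It lies on chromosome 1 (25132744–25161963) and had 24.4 and 66.1 FPKM in females and 3.87 and 5.03 FPKM in males at 25–40 h, a difference of 2.93 ± 0.45 (SE, adjusted p 0.00732 in limma). It met the limit of 10 FPKM through females alone (mean 45.2 FPKM, against 4.45 FPKM in males), so its choice favoured a sex difference. At 55–70 h it had 26.8 and 24.1 FPKM in females and 33.2 and 22.6 FPKM in males, so that the male mean was higher than at 25–40 h and the female mean lower. Of the list of 46 tested signalling genes, 10 were higher in females at 25–40 h (4.61% of all tested loci were) and 1 was lower (3.33% of all tested loci), and the 10 included the Wnt ligand genes *Wnt1*, *Wnt6*, *Wnt7* and *Wnt10*. *Wnt6* had 11.9 and 22.9 FPKM in females and 2.24 and 1.13 FPKM in males at 25–40 h, and *Wnt1* had 8.71 and 15.2 FPKM in females and 1.31 and 1.51 FPKM in males. These Wnt genes were not among the 88, and a locus named *Wnt4* was lower in females (1.23 and 0.732 FPKM, against 4.48 and 5.04 FPKM in males). *Wnt11* and the other tested loci named *Wnt4* did not pass the test (differences −0.157, −0.148 and 0.152, adjusted p 0.825, 0.847 and 0.899 in limma). Whether the Wnt genes bear on the sex difference in *Notum* was not tested.

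Adhesion and junction genes followed. *if* (inflated) encodes an integrin alpha chain, through which muscles and epithelia hold to the matrix in *Drosophila*. It had 33.6 and 45.2 FPKM in females and 5.01 and 11.97 FPKM in males at 25–40 h, a difference of 2.18 ± 0.39 (SE, adjusted p 0.0135 in limma), and 27.3 and 35.0 FPKM in females and 28.999 and 35.9 FPKM in males at 55–70 h. It met the limit of 10 FPKM through females alone (mean 39.4 FPKM, against 8.49 FPKM in males), so its choice favoured a sex difference. *ft* (Fat), a very large cadherin that orients cells within an epithelium and restrains growth in *Drosophila*, had 22.3 and 35.5 FPKM in females and 9.75 and 10.4 FPKM in males at 25–40 h (difference 1.40 ± 0.29, adjusted p 0.0236). At 55–70 h the sexes overlapped in *if*, while *ft* had 22.1 and 21.9 FPKM in females and 27.3 and 27.1 FPKM in males, with both male libraries above both female libraries. Of the 13 tested genes of the adhesion list, 4 were higher in females at 25–40 h, against 4.61% of all tested loci. They were *if*, *Dscam*, *Cad* and *Ndg*, the basement membrane protein nidogen. The 1 that was lower, against 3.33% of all tested loci, was *cad*, the transcription factor caudal, which entered the list by spelling alone.

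*pck*, a claudin of the septate junctions that seal *Drosophila* epithelia, had 43.6 and 34.6 FPKM in females and 22.8 and 30.1 FPKM in males at 25–40 h and 40.8 and 47.5 FPKM in females and 63.6 and 55.9 FPKM in males at 55–70 h. *IGFn3-13* and *IGFn3-14* are named for immunoglobulin and fibronectin domains, which are typical of cell adhesion molecules. *IGFn3-13* had 15.96 and 24.6 FPKM in females and 3.85 and 2.42 FPKM in males at 25–40 h (difference 2.35 ± 0.38, adjusted p 0.00962) and 38.8 and 66.9 FPKM in females and 74.6 and 112 FPKM in males at 55–70 h. *IGFn3-14*, in contrast, was nearly constant, with 14.4 and 9.20 FPKM in females and 18.6 and 9.25 FPKM in males at 25–40 h and 11.1 and 15.1 FPKM in females and 14.4 and 15.3 FPKM in males at 55–70 h. *IGFn3-13* met the limit of 10 FPKM through females alone (mean 20.3 FPKM, against 3.13 FPKM in males), so its choice favoured a sex difference.

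Genes of neurons, glia and the head formed a smaller group. *Syt7*, a synaptotagmin (a calcium sensor of vesicle release), had reached its late level by 25–40 h in both sexes, with 33.5 and 17.1 FPKM in females and 27.01 and 27.5 FPKM in males, and 25.1 and 30.5 FPKM in females and 31.03 and 28.1 FPKM in males at 55–70 h. *mtg* (mind the gap), a secreted protein needed at *Drosophila* synapses, had 19.6 and 9.996 FPKM in females and 4.73 and 8.06 FPKM in males at 25–40 h, and 47.9 and 63.1 FPKM in females and 40.9 and 60.6 FPKM in males at 55–70 h. *drpr* (Draper), the receptor with which *Drosophila* glia and other phagocytes engulf dying cells, had 34.8 and 21.5 FPKM in females and 23.5 and 17.4 FPKM in males, and 13.4 and 28.1 FPKM in females and 30.01 and 37.6 FPKM in males. The ages overlapped in *drpr* and *Syt7* and did not overlap in *mtg*.

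*ems* (empty spiracles), a homeodomain transcription factor of head and brain segments, had 16.2 and 25.2 FPKM in females and 4.41 and 9.91 FPKM in males at 25–40 h and missed the threshold (difference 1.47 ± 0.39, adjusted p 0.0555 in limma). At 55–70 h it had 15.8 and 13.3 FPKM in females and 17.4 and 15.4 FPKM in males. It was the only member found in a list of 49 tested transcription factors of tissue formation, and none of the 7 muscle genes was a member. Of the remaining lists, the neuron list held *Syt7*, the signalling list *Toll-6*, the list of extracellular matrix and adhesion *if*, the odorant binding list *Obp13* and the cytochrome P450 list *CYP49A1*. The lists for glia, blood cells and immunity, epidermis, gut and fat body, germ line, neuropeptides and hormones, and ion and solute transport held none.

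General cell functions made up the rest of the named genes. *CycD*, cyclin D of the entry into the cell cycle, had 76.9 and 91.7 FPKM in females and 17.2 and 42.4 FPKM in males at 25–40 h, and 72.6 and 55.4 FPKM in females and 83.6 and 38.0 FPKM in males at 55–70 h. *Rrp40*, a subunit of the RNA exosome, had a ratio of 1.15 between the ages, and *mRpS11*, of the mitochondrial ribosome, had 1.60. *Kr-h2*, *IFT122* (transport in cilia), *TRPML* (a lysosomal ion channel) and *Myo15* (an unconventional myosin) had ratios of 1.31, 1.24, 1.27 and 2.19. Of these, *Myo15* went furthest beyond its level at 25–40 h.

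*Mir281*, a microRNA locus of 103 bases, passed the rule through 1 library. It was listed at 0 in both female libraries and male library 2 of 25–40 h and at 1090 FPKM in male library 1, and at 1733 and 1693 FPKM in females and 1111 and 480 FPKM in males at 55–70 h. A listed 0 can be a failed estimate, so no sex difference is drawn from it.

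The sex difference at 25–40 h was tested in the same way for all loci, but its size was not free of the choice. The condition of 10 FPKM used the mean of both sexes, so a gene that met it through 1 sex had to differ between the sexes. Females alone averaged at least 10 FPKM in 36 genes, males alone in 4, and both sexes in 48. Of these 48 genes, 9 were higher in females in limma at an adjusted p under 0.05 (18.8%) and 0 lower, against 4.82% higher and 2.26% lower of the 4109 tested loci with both sexes at that level. Their median difference of females minus males was 0.41 on the log2(FPKM + 1) scale, against −0.05 for those loci, and 38 of the 48 were positive. The 9 genes were *LOC100576083*, *LOC409822*, *LOC412948*, *LOC409778*, *ft*, *LOC100576814*, *LOC411188*, *LOC100577418* and *LOC725684*. Except for *LOC100576083*, each of them lost its call when some library was left out.

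Over all 88 genes the counts include those that the condition favoured and are given as a description. In limma 27 genes were higher in females (4.61% of the 10466 tested loci were) and 0 lower (3.33% of all tested loci), and 18 of the 27 were genes in which females alone reached 10 FPKM. At an unadjusted p under 0.05, 40 genes were higher and 2 lower, against 1321 and 1001 of the 10466 tested loci. Both female libraries lay above both male libraries in 63 genes (28.5% of all tested loci), and both male libraries above both female libraries in 4 (21.9% of all tested loci). Without *Mir281* the difference ranged from −1.76 (*LOC724488*) to 3.30 (*LOC411065*), with a median of 0.76.

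The 27 called genes had 2.49 to 12.3 times the mean FPKM of males in females at 25–40 h (median 5.35). Of these, 6 had a symbol: *pnt*, *CTL1*, *Notum*, *IGFn3-13*, *if* and *ft*, and among the 6 both sexes reached 10 FPKM in *ft* alone. By p-value the other leading genes were known by number only. *LOC100577530* had 37.2 and 38.0 FPKM in females and 5.13 and 6.84 FPKM in males (difference 2.48 ± 0.26, adjusted p 0.00253). It met the limit of 10 FPKM through females alone (mean 37.6 FPKM, against 5.98 FPKM in males), so its choice favoured a sex difference. *LOC100576083* had 66.9 and 131 FPKM in females and 11.5 and 10.1 FPKM in males (difference 3.01 ± 0.34, adjusted p 0.00337).

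Among the 27 genes *LOC411065* and *LOC552447* had the largest differences (3.30 ± 0.39 and 3.15 ± 0.38, adjusted p 0.00350 and 0.00361 in limma). Both met the limit of 10 FPKM through females alone, so their choice favoured a sex difference. Their means at 25–40 h were 49.1 and 56.3 FPKM in females, against 3.99 and 5.21 FPKM in males. *LOC411065*, on chromosome 5 (6110798–6124876), had 39.7 and 58.6 FPKM in females and 4.18 and 3.81 FPKM in males at 25–40 h, and 35.3 and 81.4 FPKM in females and 86.5 and 94.6 FPKM in males at 55–70 h. *LOC552447*, on chromosome 11 (11166166–11171180), had 39.8 and 72.9 FPKM in females and 5.77 and 4.65 FPKM in males at 25–40 h, and 213 and 409 FPKM in females and 438 and 384 FPKM in males at 55–70 h. The female means of 55–70 h were 1.19 and 5.52 times those of 25–40 h in these genes, and the male means 22.7 and 78.9 times. *LOC100576435* had 32.1 and 29.6 FPKM in females and 5.22 and 6.31 FPKM in males at 25–40 h and did not differ beyond its spread at 55–70 h (31.3 and 28.8 FPKM in females and 33.6 and 26.9 FPKM in males). It too met the limit of 10 FPKM through females alone (mean 30.8 FPKM, against 5.76 FPKM in males).

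**Figure D4:**
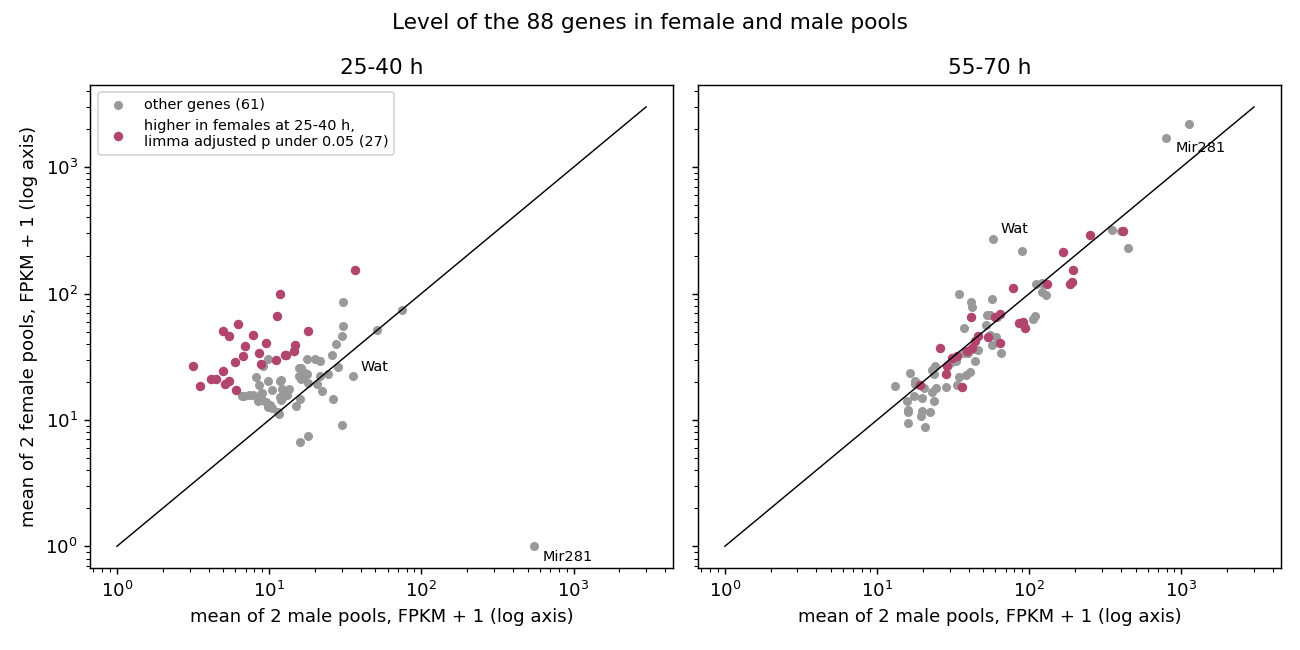
Mean FPKM + 1 of 2 female pools (y axis) against 2 male pools (x axis) for the 88 genes at 25–40 h (left) and 55–70 h (right), on log axes with the line of equal levels. The 27 coloured genes lie above the line at 25–40 h and on both sides of it at 55–70 h, where 7 have the higher mean in females and 20 in males.

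The count rested on individual libraries: it was 9 without male library 1 of 25–40 h and 13 without female library 2 of that age. Without male library 2 of that age 18 genes were higher in females, 16 of them among the 27, and *Mir281* was lower. In all, 9 of the 27 calls were kept whichever of the 8 libraries was left out. Among them were *pnt* and *CTL1*, in which females alone averaged 10 FPKM or more at 25–40 h. Of the called genes with both sexes at that level, *LOC100576083* alone was among them. *LOC100577418* lost its call whichever library was left out. Among the 39 genes that overlap no other locus 12 were called, and among the 33 that met the limits in both sexes 5 were called. Both subsets were chosen after seeing the data. No share over all loci is set beside these counts, so they are a description.

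The sex difference at 25–40 h was also set beside the change of expression from 10–15 h to 55–70 h in other loci, as a description. Of the loci with at least 4 times the mean FPKM at 55–70 h as at 10–15 h, a grouping that uses no library of 25–40 h and here leaves out the 88 genes, 347 of 4711 (7.37%) were higher in females at 25–40 h and 25 (0.531%) lower. Of the loci with at least 4 times the mean at 10–15 h as at 55–70 h, 3 of 742 (0.404%) were higher in females and 251 (33.8%) lower. Of 634 other loci under 1 FPKM at 10–15 h with a mean of at least 10 FPKM at 55–70 h, 78 (12.3%) were higher in females and 5 (0.789%) lower. Of the tested genes of the muscle, neuron and epidermis lists, 1 of 6 (*Mf*), 0 of 25 and 1 of 19 (*grh*, a transcription factor of the epidermis) were higher in females. The numbers lower were 0, 2 and 0, against 4.61% higher and 3.33% lower of all tested loci. Another tested locus named *grh* did not pass the test (difference 0.173, adjusted p 0.924 in limma). The 2 lower genes were *Cac* and *Rdl*, both on at 10–15 h. Their means there were 21.2 and 5.69 FPKM in females and 27.8 and 15.4 FPKM in males. The muscle list summed to 151 and 114 FPKM in females and 133 and 147 FPKM in males. Much of this sum came from *Actn* (means 72.0 FPKM in females and 100.5 FPKM in males), already on at 10–15 h (39.6 and 24.4 FPKM). The female mean was the higher in *Mlc2* (38.2 against 27.4 FPKM), *Mhc1* (12.2 against 7.02 FPKM), *Mf*, *Unc-89* and *RyR*. It was the lower in *Zasp66* (0.301 against 0.363 FPKM). Of the 98 loci that met every condition but the last, with a lower mean at 55–70 h than at 25–40 h, 13 (13.3%) were higher in females and 3 (3.06%) lower. Whether the female pools were further on in development within the 25–40 h window was not tested, and sex and developmental progress within the window cannot be told apart in these pools; nor, in whole embryos, can more RNA per cell and more cells of a kind.

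At 55–70 h none of the 88 genes passed the test between the sexes. Both female libraries lay above both male libraries in 13 of the 88 genes (13.8% of all tested loci did so) and both male above both female libraries in 33 (35.2% of all tested loci). In limma 0 genes were higher in females and 0 lower, against 0.0191% of all tested loci in either direction. At an unadjusted p under 0.05, 4 were higher and 9 lower, against 416 and 982 of the 10466 tested loci. The median difference was −0.16, against −0.19 over all tested loci, and 28 of the 88 were positive, against 33.8% of all tested loci. With median-ratio scaling the median over all tested loci was 0.06 and that of the 88 genes 0.12, so the sign of the late difference depends on the scaling.

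The change of the sex difference between the ages was tested in the same model. The difference at 55–70 h minus that at 25–40 h was below 0 in 74 of the 88 genes, with a median of −1.07, against −0.18 over all tested loci. It was above 0 in 14 of the 88, against 41.7% of all tested loci. The condition of 10 FPKM at 25–40 h bears on this measure too. The change passed an adjusted p under 0.05 as a negative value in 15 genes (1.43% of all tested loci), 12 of them genes in which females alone reached 10 FPKM at 25–40 h, and as a positive value in 0 (0.965% of all tested loci). At an unadjusted p under 0.05, 44 genes were negative and 3 positive, against 1489 and 696 of the 10466 tested loci. Of the 15 genes, 14 were also among the 27 higher in females at 25–40 h, and they included *Notum* (−3.03 ± 0.63, adjusted p 0.0479), *IGFn3-13* (−3.18 ± 0.54, adjusted p 0.0305) and *CTL1* (−2.03 ± 0.40, adjusted p 0.0426). In *pnt* the change was −1.75 ± 0.42 and missed the threshold (adjusted p 0.0681).

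Each of these 15 calls was lost when some library was left out, and the count was then between 0 and 16. It was 0 without female library 2 or male library 1 of 25–40 h or female library 1 of 55–70 h, 1 without male library 2 of 25–40 h (*Mir281*, as a positive value) or male library 1 of 55–70 h (*LOC411188*), 3 without female library 2 of 55–70 h and 5 without male library 2 of 55–70 h (1 of them, *Wat*, positive). Of the 48 genes with both sexes at 10 FPKM or more at 25–40 h, 3 were called: *LOC100576083*, *LOC409822* and *LOC100577418*.

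**Figure D5:**
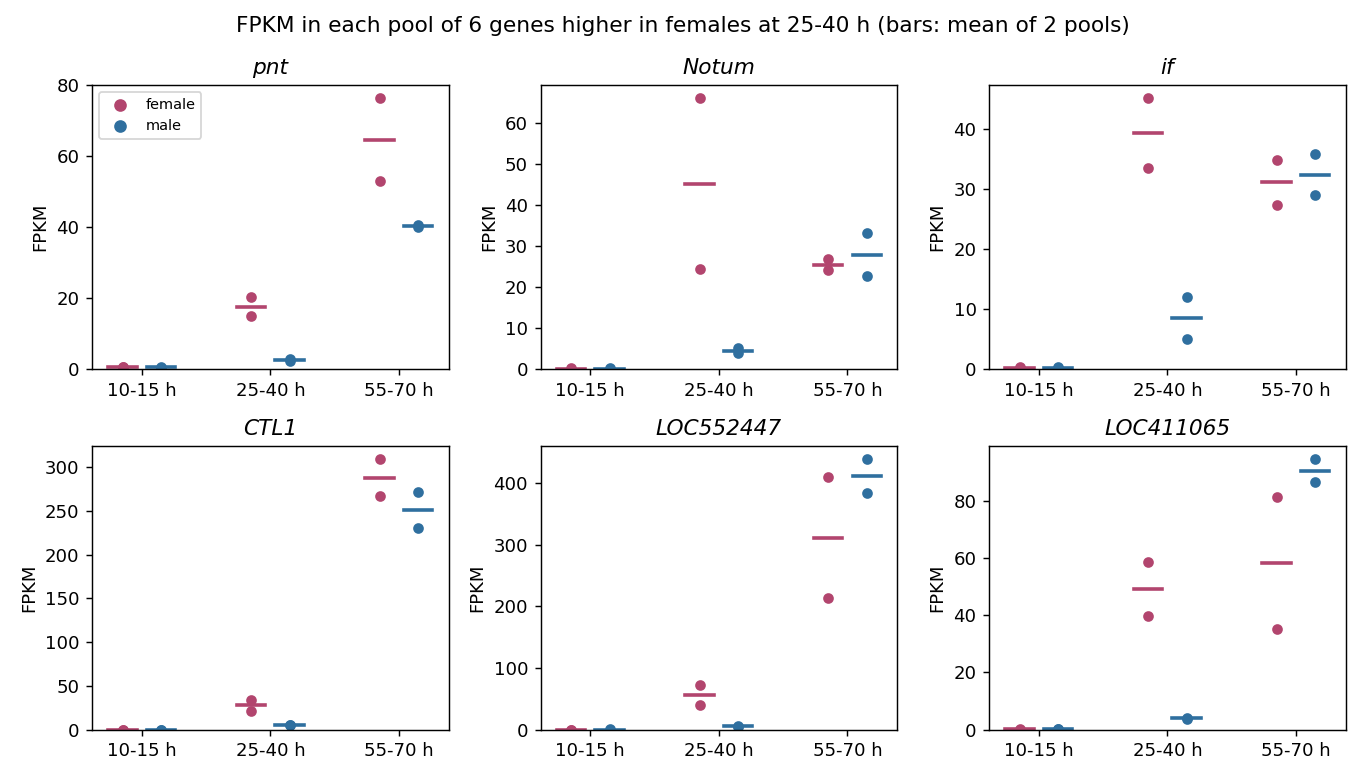
FPKM of 6 genes higher in females at 25–40 h in each pool, female left of male at each age; points are pools and bars are means of 2 pools. At 25–40 h both female pools lie above both male pools in all 6 (in *pnt* 14.8 and 20.3 FPKM against 2.22 and 2.79 FPKM), and at 55–70 h the sexes overlap in *Notum*, *if*, *CTL1* and *LOC552447*.

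The sex difference at 25–40 h was also set beside the ratio of the ages, 2 measures that share the libraries of 25–40 h. The median difference was 1.31 in the 24 genes with a ratio of at least 4, of which 10 were called, 0.79 in the 22 genes with a ratio from 2 to 4 (7 called) and 0.57 in the 42 genes under 2 (10 called). *LOC100577092* was the gene nearest to a call in the other direction, with 5.47 and 7.44 FPKM in females and 13.8 and 20.04 FPKM in males at 25–40 h (difference −1.25 ± 0.34, adjusted p 0.0620 in limma). At 55–70 h it had 90.4 and 113 FPKM in females and 88.7 and 150.2 FPKM in males, an overlap of the sexes. *LOC724488* was also higher in both male libraries at 25–40 h, with 9.98 and 6.22 FPKM in females and 29.1 and 29.3 FPKM in males.

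The genes were spread over the genome. Chromosome 1 held 15 and chromosome 15 held 11, which was 2.28% of the 482 loci with 1 name on chromosome 15, while chromosome 4 held 0 of 485. Among the loci with 1 name, 4 of the 88 lay next to another of the 88. The median locus length was 6914 bases, against 4436 bases for all loci with 1 name. Another locus overlapped 49 of the 88 (55.7%, against 62.6% of all loci with 1 name), and for these genes reads of the neighbour may have entered the estimate. Of the 704 values of the 88 genes at the later ages, 25.7% lay outside the confidence bounds printed beside them in the files, against 25.99% over all tested loci.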

How the data were processed

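Poly(A) RNA of 12 pools of whole honeybee embryos was sequenced, and the authors deposited 1 file of gene FPKM per library, with confidence bounds and a status, for 17621 loci. Per the labels' processing notes, reads were aligned with TopHat2 over Bowtie2 2.2.6 and quantified with Cufflinks 2.2.1. The assembly was not given in the sources used here, so coordinates are those of the files and chromosome numbers were matched through symbols shared with a RefSeq annotation. Groups were taken from the labels.

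The members and gene lists were chosen with earlier results of these data known. Female minus male was tested with limma 3.58.1 (R 4.3.3, variance trend, empirical Bayes) on log2(FPKM + 1) over the 8 libraries of 25–40 h and 55–70 h as 4 group means with 4 residual degrees of freedom. The 10–15 h libraries were left out because the rule pins the genes near 0 there. Tested were 10466 loci with a valid estimate in all 12 libraries and a mean of at least 1 FPKM over the 8 libraries. All 88 genes passed, each by construction of the rule. P-values were two-sided and adjusted by Benjamini-Hochberg over all tested loci, with a threshold of 0.05, for 3 contrasts. The test was checked on simulated data with known sex differences at 25–40 h. It recovered 3 of 100 changes of 2-fold and 61 of 100 of 4-fold, with 3 false calls, so most 2-fold differences would be missed.

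Named were the 10 genes with a symbol highest at 55–70 h and at 25–40 h, the 8 with the largest and the 8 with the smallest ratio of the ages, up to 6 called genes per contrast and direction by p-value, up to 2 genes without a symbol by late level, the 3 nearest to each limit and every member of a gene list. The other genes with a symbol, *LOC100577092*, *LOC724488*, *LOC411188* and the list genes that are not members were named after their values were seen. Lists were matched by symbol regardless of case, which puts a few unrelated genes, such as *Fer2LCH* among the transcription factors, into them. Alternatives were other pseudocounts, filters, scalings, fits and left-out libraries. Promoter motifs and sequences were not analysed here. Figures were drawn with matplotlib 3.10.9.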

Additional observations from a re-analysis of the deposited data

Results flagged for a closer look

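In 15 of the 88 genes the sex difference at 55–70 h was lower than that at 25–40 h by the test of the difference itself (limma, adjusted p under 0.05). The choice of the genes favoured a high mean at 25–40 h: in 12 of the 15 females alone reached 10 FPKM at that age, and 3 were among the 48 genes with both sexes at that level, so the count is not set against all loci. The values are the female minus male difference at 55–70 h minus that at 25–40 h on the log2(FPKM + 1) scale, from 4 libraries per age. The largest were those of *LOC411065* (−4.05), *LOC100576083* (−3.64) and *LOC552447* (−3.62), all 3 known by number only. *LOC100577629* and *IGFn3-13* followed with −3.34 and −3.18, and *Notum* with −3.03. *LOC550677* had −2.86, *LOC409822* −2.64, *LOC100577530* −2.63, *LOC100576369* −2.55 and *LOC725003* −2.43. *LOC100577418* had −2.29, *LOC100578003* −2.25, *LOC100576435* −2.24 and *CTL1* −2.03.

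In 14 of the 15 the females were higher at 25–40 h by the same test. *LOC100578003* was the exception, with 13.1 and 16.6 FPKM in females and 5.98 and 7.69 FPKM in males at 25–40 h, and 7.08 and 8.62 FPKM in females and 19.4 and 20.1 FPKM in males at 55–70 h, where both male libraries lay above both female libraries. None of the 15 calls was kept under every left-out library.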

How the results depend on the processing

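The number of genes that met the rule depended on its limits. It was 44 with a limit of 0.5 FPKM and 165 with 2 FPKM at 10–15 h, 211 with 5 FPKM and 31 with 20 FPKM at 25–40 h, 33 with the limits met in both sexes and 45 with median-ratio scaling. As TPM it was 61, with the midpoints of the bounds (chosen after seeing the data) 79, and without 1 library 81 to 100.

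The 27 calls at 25–40 h were 24 to 35 in the other fits, scalings, pseudocounts and filters, of which at most 1 was lower in females, and 9 to 27, again with at most 1 lower, without 1 library, where a lone library is assumed to vary like the rest. None of the 27 turned its direction. The calls were 12 among genes that overlap no other locus, 9 among genes at 10 FPKM or more in both sexes and 5 among genes that met all limits in both sexes (these 3 subsets chosen after seeing the data). The 0 calls at 55–70 h stayed 0 in all alternatives but 1 (0 to 1 without 1 library, the call being *Wat*).

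The 15 calls for the change of the sex difference were 1 with no filter, 8 with median-ratio scaling, 29 in the fit of all 12 libraries, 8 with a replicate block, 5 among genes that overlap no other locus, 3 among genes at 10 FPKM or more in both sexes, 1 among genes that met all limits in both sexes, and 0 to 16 without 1 library. The 29 came from a fit that includes the 10–15 h values, which the rule holds near 0. Of the 29, *Wat* was positive (3.48). The cause of the change of the sex difference was not tested. Replicate numbers did not pair the libraries (correlation of deviations −0.03 between the sexes at 25–40 h and 0.11 at 55–70 h). With the block 26 genes were called at 25–40 h, 25 of the 27 and *LOC100577092* as lower in females, and 0 at 55–70 h. Depth is unknown, and with 2 libraries per group small differences could not be detected.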
